A study of Homo sapiens with 6 samples.

Results

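Genes were selected by their symbol in the platform annotation, taking every numbered collagen chain, laminin alpha, beta or gamma chain, integrin alpha chain and integrin beta chain from ITGB1 to ITGB8. Counting only probe sets with 1 gene symbol, this selected 1 of the 14884 genes named on the array, COL26A1, the alpha chain of type XXVI collagen. RefSeq lists 83 human symbols of this form, 44 for collagens, 12 for laminins and 27 for integrins. The other 82 are not analysed here, so the values describe COL26A1 and the wider matrix and adhesion genes around it, and they do not speak for the collagen, laminin or integrin families as a whole.

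RNA came from MDA-MB-231, a human breast cancer cell line, transfected with siATM (against the DNA damage kinase ATM), with sip53 (against the transcription factor p53) or with the control siRNA siNC. Each siRNA had 2 samples and each sample had its own Human Gene 2.0 ST array. All cells were grown in the same serum-containing medium and received the same transfection reagent, Lipofectamine RNAiMAX. The labels give neither the siRNA sequences, nor the time after transfection, nor whether a group's 2 samples were grown as separate cultures. Each p-value reflects the spread between samples of the same siRNA, estimated over all 6 arrays together and moderated towards that of all genes tested. As separate cultures are not stated, that spread may be technical. The transcripts of both targeted genes are not analysed here.

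Collagens are secreted proteins whose chains wind into a triple helix and build fibrils, networks or short collagenous stretches in larger matrix proteins. Laminins are cross-shaped trimers that form the sheet of the basement membrane, and integrins are paired alpha and beta chains that bind collagens, laminins and fibronectin outside the cell and connect them to actin inside it. COL26A1 encodes a secreted chain with short collagenous stretches and an EMI domain, a cysteine-rich fold shared with the emilins. It was first described from testis and ovary of the mouse.

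COL26A1 did not differ detectably between the siRNAs. With no detection call made, its mean of 7.08 over the 6 arrays was above that of 27.7% of genes tested. Its log2 value was 7.04 and 7.01 on the siATM arrays and 7.08 and 7.16 on the sip53 arrays, against 7.03 and 7.18 on the siNC arrays. The siNC arrays marked nearly the whole range of the 6, and both siATM arrays and both sip53 arrays lay between or next to them. The siATM mean was 7.03 ± 0.03, the sip53 mean 7.12 ± 0.06 and the siNC mean 7.10 ± 0.11 (SD, n = 2 each). The order of the means was therefore sip53, siNC, siATM, and no neighbouring pair in it differed beyond the spread of the arrays.

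**Figure D1:**
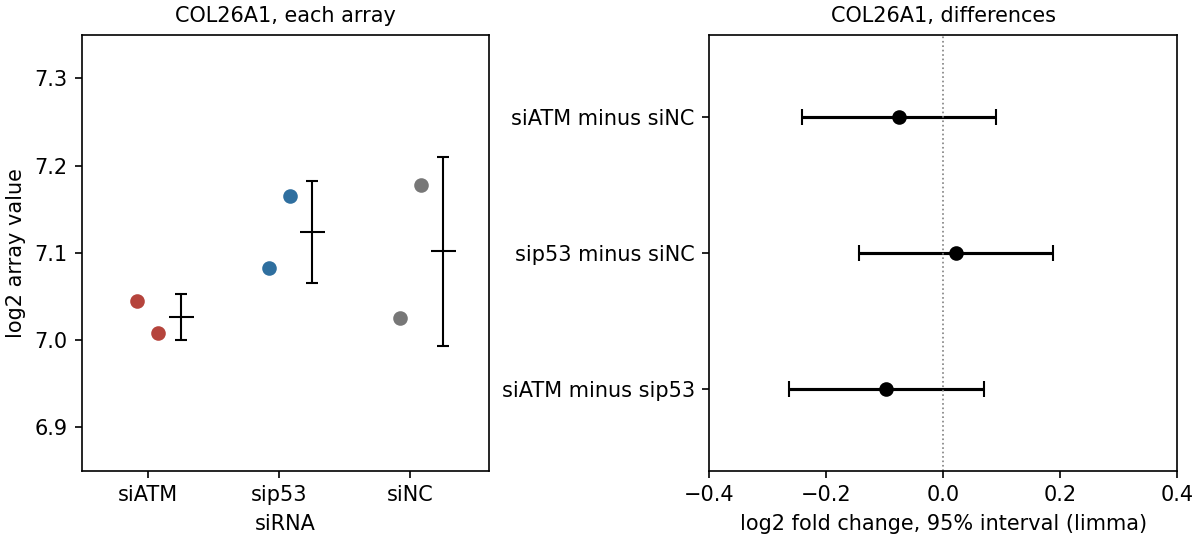
Left, the log2 array value of COL26A1 on each array (points), with the mean and SD of each siRNA beside them (black, n = 2 each), on an axis that does not start at 0. Right, the log2 fold change and 95% interval of each comparison from limma; all 3 intervals include 0.

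After siATM, the log2 fold change of COL26A1 against siNC was −0.08 (SE 0.07, 95% interval −0.24 to 0.09), with an adjusted p of 0.482 (limma, Benjamini-Hochberg over all genes tested). A gene was called changed where this adjusted p was below 0.05. So 0 of 1 selected genes were called, where 25.5% of the 10640 genes tested were called. At an unadjusted p below 0.05 it was again 0 of 1, against 38.2% of all genes tested. The interval runs from 1.18-fold lower to 1.06-fold higher. The 2 siNC arrays differed from each other by 0.15 on the log2 scale, which is more than the difference between the means of siATM and siNC (0.08). One control array set the sign, since the fold change was 0.0010 without siNC replicate 2 and −0.15 without siNC replicate 1, neither of them called.

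After sip53, the log2 fold change of COL26A1 was 0.02 (SE 0.07, 95% interval −0.14 to 0.19, limma adjusted p = 0.884). Again 0 of 1 genes were called, against 10.6% of all genes tested, and 0 of 1 passed an unadjusted p below 0.05, against 26.4%. The interval runs from 1.11-fold lower to 1.14-fold higher. The sign turned without sip53 replicate 2 (−0.02) or without siNC replicate 1 (−0.05), and also with arrays centred on their medians (−0.01). Both comparisons use the same siNC arrays.

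Set directly against sip53, siATM gave the largest of the 3 differences in COL26A1. Both siATM arrays lay below both sip53 arrays, a separation that 65.4% of all genes tested showed in this comparison. The log2 difference was −0.10 (SE 0.07, 95% interval −0.26 to 0.07), and with a limma adjusted p of 0.344 it was not called (0 of 1), while 30.3% of all genes tested were. An unadjusted p below 0.05 was reached by 41.4% of genes and not by COL26A1. At its limits this interval allows COL26A1 to be 1.20-fold lower or 1.05-fold higher with siATM than with sip53.

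Genes that process, surround, bind or degrade collagens and laminins were described from 5 lists, which hold 147 genes, 102 of them named on the array and 87 bright enough to be tested. After siATM, higher values were called for 22 of the 87 and lower values for 8, with a median log2 fold change of 0.06. Over all genes tested 12.5% were higher and 13.0% lower, with a median of −0.0006. With the filter at the 70th percentile, which keeps brighter genes, 1545 of 7391 genes were called higher and 1395 lower after siATM. The lists were chosen with earlier results of these data known. Their counts are therefore a description, and an excess over all genes was not tested. After sip53, 6 of the 87 were higher and 10 lower, with a median of −0.01, against 5.47% higher and 5.11% lower over all genes and a median of 0.01. Of the same 87, 25 were higher and 5 lower with siATM than with sip53, where the shares over all genes were 14.0% and 16.3%. The number called after siATM, 30 in all, was 16 without siNC replicate 1 and 19 with dim genes included. The number after sip53, 16 in all, was 5 without either sip53 array, 7 without siNC replicate 1, 6 without siNC replicate 2 and 8 with dim genes included. The 30 genes called between siATM and sip53 became 18 without sip53 replicate 2.

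**Figure D2:**
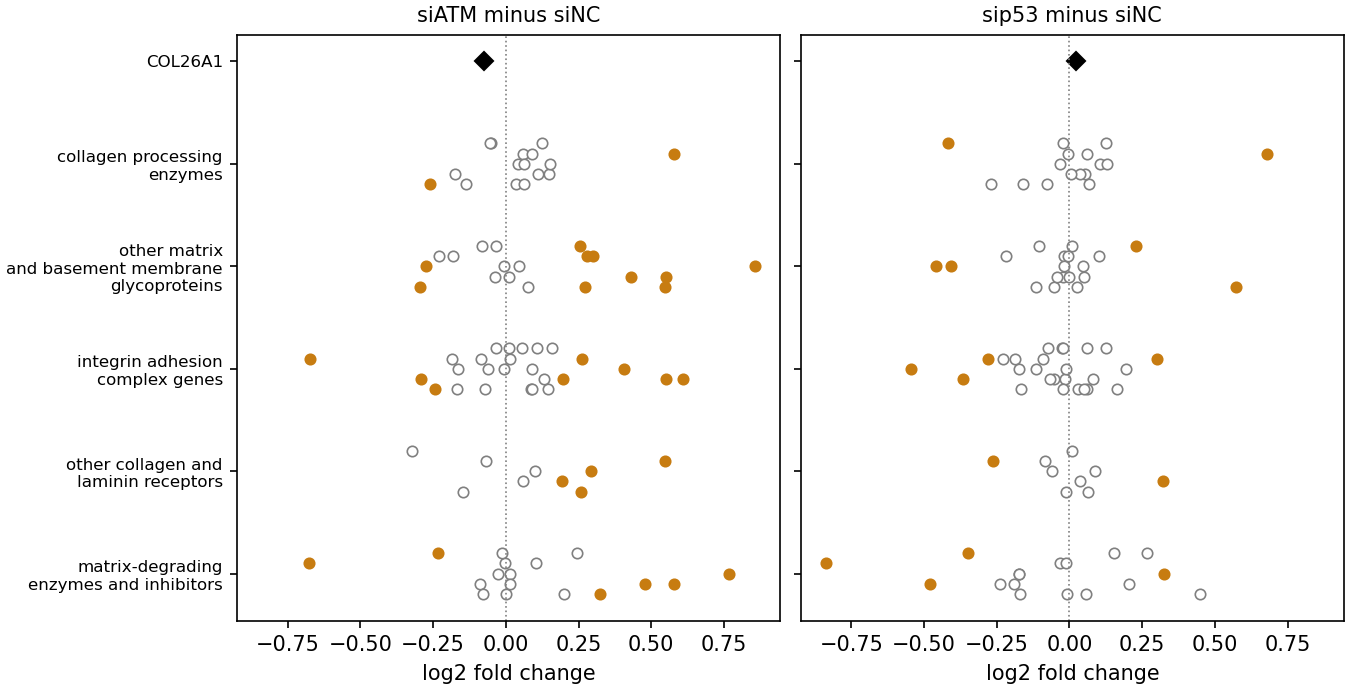
Log2 fold change of COL26A1 (black diamond) and of the tested genes of 5 lists (circles, filled where limma adjusted p was below 0.05) after siATM (left) and after sip53 (right), each against siNC. COL26A1 lies at −0.08 and 0.02, inside the range of each list; the vertical offset of circles only separates them.

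The next list holds enzymes that modify, fold, trim or cross-link collagen, and partners of these that are not enzymes, such as CRTAP. Of 16 genes tested, 1 was higher and 1 lower after siATM (median 0.06), and 1 was higher and 1 lower after sip53 (median 0.02). Over all genes tested, 25.5% were called after siATM and 10.6% after sip53. With trend and robust moderation of the variances, 5 of the 16 were called after siATM. LOXL4, a lysyl oxidase that cross-links collagen and elastin, had log2 values of 10.49 and 10.49 with siATM and 10.49 and 10.69 with sip53, against 9.97 and 9.86 with siNC. The rise of LOXL4 was 1.49-fold after siATM (log2 fold change 0.58, SE 0.08, limma adjusted p = 0.00287) and 1.60-fold after sip53 (0.68, SE 0.08, adjusted p = 0.00385). LOX, the founding member of the same enzyme family, fell 1.34-fold after sip53 (log2 fold change −0.42), while after siATM it was at −0.05 and not called. The difference of LOX between siATM and sip53 was itself called (0.36, limma adjusted p = 0.00667). P3H2, a prolyl 3-hydroxylase of basement membrane collagens, fell after siATM (−0.26). P3H2 was no longer called in fits lacking siATM replicate 1 or a siNC array (adjusted p up to 0.133), and LOX lost its call after sip53 without either sip53 array or siNC replicate 2 (up to 0.0818). LOXL4 was the 1 enzyme still called after siATM without a siNC array, and after sip53 in those fits that ended the call of LOX.

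Other matrix and basement membrane glycoproteins were mostly higher where they changed after siATM. Of 19 tested, 8 were higher and 2 lower after siATM (median 0.04), and 2 were higher and 2 lower after sip53 (median −0.02). Over all genes, 12.5% were higher and 13.0% lower after siATM, and 5.47% higher and 5.11% lower after sip53. HSPG2 encodes perlecan, the heparan sulfate proteoglycan that links laminin and type IV collagen networks. Its log2 value was 9.80 and 9.87 with siATM and 9.04 and 9.01 with sip53, against 8.92 and 9.03 with siNC. The sip53 and siNC arrays overlapped. HSPG2 rose 1.81-fold after siATM (log2 fold change 0.86, SE 0.06, limma adjusted p = 0.000342) and was at 0.05 after sip53 (adjusted p = 0.698), and the 2 siRNAs differed by 0.81 (adjusted p = 0.000351).

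THBS3, a thrombospondin, rose 1.46-fold after siATM (log2 fold change 0.55, limma adjusted p = 0.00264) and was at −0.04 after sip53 (adjusted p = 0.777). FBN1, the fibrillin of elastic microfibrils, was higher after both siRNAs, with log2 values of 8.82 and 8.75 after siATM and 8.85 and 8.78 after sip53, against 8.30 and 8.18 with siNC. Its rise was 1.46-fold after siATM and 1.49-fold after sip53 (limma adjusted p = 0.00186 and 0.00377). TNC, which encodes the glycoprotein tenascin C, fell after sip53 (log2 fold change −0.46, adjusted p = 0.00650) and was at 0.04 after siATM (not called), a difference between the siRNAs of 0.50 (adjusted p = 0.00134). CCN2, a secreted matricellular protein that binds integrins, fell after sip53 (−0.41, adjusted p = 0.0114) and after siATM (−0.27, adjusted p = 0.0226), and the difference between the siRNAs was not called (0.13). This reading depended on the probe set. With all probe sets of CCN2 averaged, its fall after siATM was −0.14 and not called. The difference between the siRNAs was then called (0.35, limma adjusted p = 0.00352). TNC lost its call after sip53 without sip53 replicate 2 (adjusted p = 0.0563), and CCN2 lost its call without sip53 replicate 1 or siNC replicate 1 (up to 0.0841). The call of CCN2 after siATM ended when any 1 of the siATM and siNC arrays was removed (up to 0.13). The list had 5 called genes after siATM without siNC replicate 1, and 2 after sip53 without either sip53 array or siNC replicate 1.

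The list of receptors for collagen and laminin other than integrins was called in one direction after siATM. It also holds CD47, which is not a collagen or laminin receptor. Of 9 tested, 4 were higher and 0 lower (median 0.10), and after sip53 1 was higher and 1 lower (median 0.01). The median after siATM was the value of CD47 itself, which was not called. The lowest log2 fold change among the 9 after siATM was −0.32, which was not called. All genes tested were 12.5% higher and 13.0% lower after siATM, and 5.47% higher and 5.11% lower after sip53. DDR1, a receptor tyrosine kinase that collagen activates, had log2 values of 10.00 and 10.11 with siATM and 9.42 and 9.43 with sip53, against 9.50 and 9.52 with siNC. DDR1 rose 1.46-fold after siATM (log2 fold change 0.55, SE 0.06, limma adjusted p = 0.00121) and was at −0.08 after sip53 (adjusted p = 0.437), with a difference of 0.63 between them (adjusted p = 0.000564). The syndecan SDC3 (0.29) and BCAM, a laminin receptor of the immunoglobulin family (0.26), also rose after siATM. The syndecan SDC2 rose after both siRNAs (0.19 after siATM and 0.32 after sip53), with no called difference between them (−0.13), and the syndecan SDC4 fell after sip53 (−0.26). These smaller changes were not stable to leaving out 1 array. SDC2 and SDC4 lost their call after sip53 without any 1 of the sip53 and siNC arrays (adjusted p up to 0.114 and 0.172), which left 0 called receptors, SDC3 without siATM replicate 2 or a siNC array (up to 0.114), and BCAM without siATM replicate 1 or a siNC array (up to 0.101). The rise of SDC2 after siATM had an adjusted p of 0.0459 and was lost under 11 of 14 alternatives, among them the removal of any 1 array (up to 0.186). Of the 4 receptors called after siATM, 1 was left without either siNC array or with dim genes included, and 2 without siATM replicate 2. DDR1 kept its call after siATM in every such fit.

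Genes of the integrin adhesion complex, which ties integrin tails to actin, were called both ways, as were all genes tested. The list also held the membrane tetraspanins CD9, CD81, CD82 and CD151, so its counts cover both kinds. Of 26 tested, 5 were higher and 3 lower after siATM (median 0.04), and 1 was higher and 3 lower after sip53 (median −0.02). The shares over all genes were 12.5% higher and 13.0% lower after siATM, and 5.47% higher and 5.11% lower after sip53. CD82, a tetraspanin that associates with integrins in the membrane, had the largest fall of the list after siATM, with log2 values of 9.25 and 9.31 with siATM and 9.77 and 9.68 with sip53, against 9.97 and 9.94 with siNC. It fell 1.59-fold after siATM (log2 fold change −0.67, SE 0.06, limma adjusted p = 0.000669), and was at −0.23 after sip53 (adjusted p = 0.0554). The difference of CD82 between siATM and sip53 was called (−0.44, limma adjusted p = 0.00192). Its fall after sip53 was called with a filter at the 70th percentile, with median centring and with trend and robust moderation. TNS2, a tensin that binds integrin beta tails, rose 1.53-fold after siATM (adjusted p = 0.00109), and KANK2, which binds talin at the rim of adhesions, rose 1.47-fold (adjusted p = 0.00160). After sip53 TNS2 was at 0.08 and KANK2 at −0.05, and neither was called.

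FERMT2 encodes kindlin-2, which binds integrin beta tails and helps to activate them. Its log2 value was 9.43 and 9.33 with siATM and 8.73 and 8.75 with sip53, against 9.32 and 9.25 with siNC. FERMT2 fell 1.46-fold after sip53 (log2 fold change −0.55, SE 0.06, limma adjusted p = 0.00326) and was at 0.09 after siATM (adjusted p = 0.328), and the 2 siRNAs differed by 0.64 (adjusted p = 0.000588). FERMT1, its epithelial relative kindlin-1, fell after sip53 (−0.36) and after siATM (−0.29), and TNS4, a tensin, rose after sip53 (0.30) and after siATM (0.26). The difference between siATM and sip53 was not called for FERMT1 (0.07) or TNS4 (−0.04). FERMT1 and TNS4 lost their call after sip53 without any 1 of the sip53 and siNC arrays (adjusted p up to 0.123 and 0.152), and FERMT2 was then the 1 called gene of the list. Their calls after siATM also ended in fits lacking siATM replicate 2 or siNC replicate 1, and that of FERMT1 in the fit lacking siNC replicate 2 (up to 0.0919 for FERMT1 and 0.123 for TNS4). After siATM the list had 5 called genes without siATM replicate 2 and 4 without siNC replicate 1.

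Matrix-degrading enzymes and their inhibitors were likewise called both ways. Of 17 tested, 4 were higher and 2 lower after siATM (median 0.01), and 1 was higher and 3 lower after sip53 (median −0.03). The shares over all genes were 12.5% higher and 13.0% lower after siATM, and 5.47% higher and 5.11% lower after sip53. RECK, a membrane-anchored inhibitor of metalloproteinases, had log2 values of 9.43 and 9.45 with siATM and 8.95 and 9.04 with sip53, against 8.70 and 8.65 with siNC. RECK rose 1.70-fold after siATM (log2 fold change 0.77, SE 0.06, limma adjusted p = 0.000447) and 1.25-fold after sip53 (0.33, adjusted p = 0.0175). MMP15, a membrane-type metalloproteinase, rose 1.49-fold after siATM (adjusted p = 0.00372) and was at −0.19 after sip53 (not called).

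MMP1, the interstitial collagenase that cleaves fibrillar collagen, had log2 values of 6.22 and 5.95 with siATM and 6.01 and 5.83 with sip53, against 6.70 and 6.82 with siNC. The fall of MMP1 was 1.60-fold after siATM (log2 fold change −0.68, SE 0.11, limma adjusted p = 0.00431) and 1.79-fold after sip53 (−0.84, SE 0.11, adjusted p = 0.00458). The sip53 mean of 5.92 lay below 5.96, the level set as the limit for a gene's mean over the 6 arrays, so MMP1 was dim there. CTSK, the collagen-degrading protease cathepsin K, fell after sip53 (−0.48), as did the metalloproteinase MMP19 (−0.35). CTSK lost its call without either sip53 array or siNC replicate 2 (adjusted p up to 0.0850), and MMP19 and the call of RECK after sip53 were lost without any 1 of the sip53 and siNC arrays (up to 0.0946 and 0.130). After sip53 the list then had 2 called genes without siNC replicate 1 and 1 without any 1 of the other 3.

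**Figure D3:**
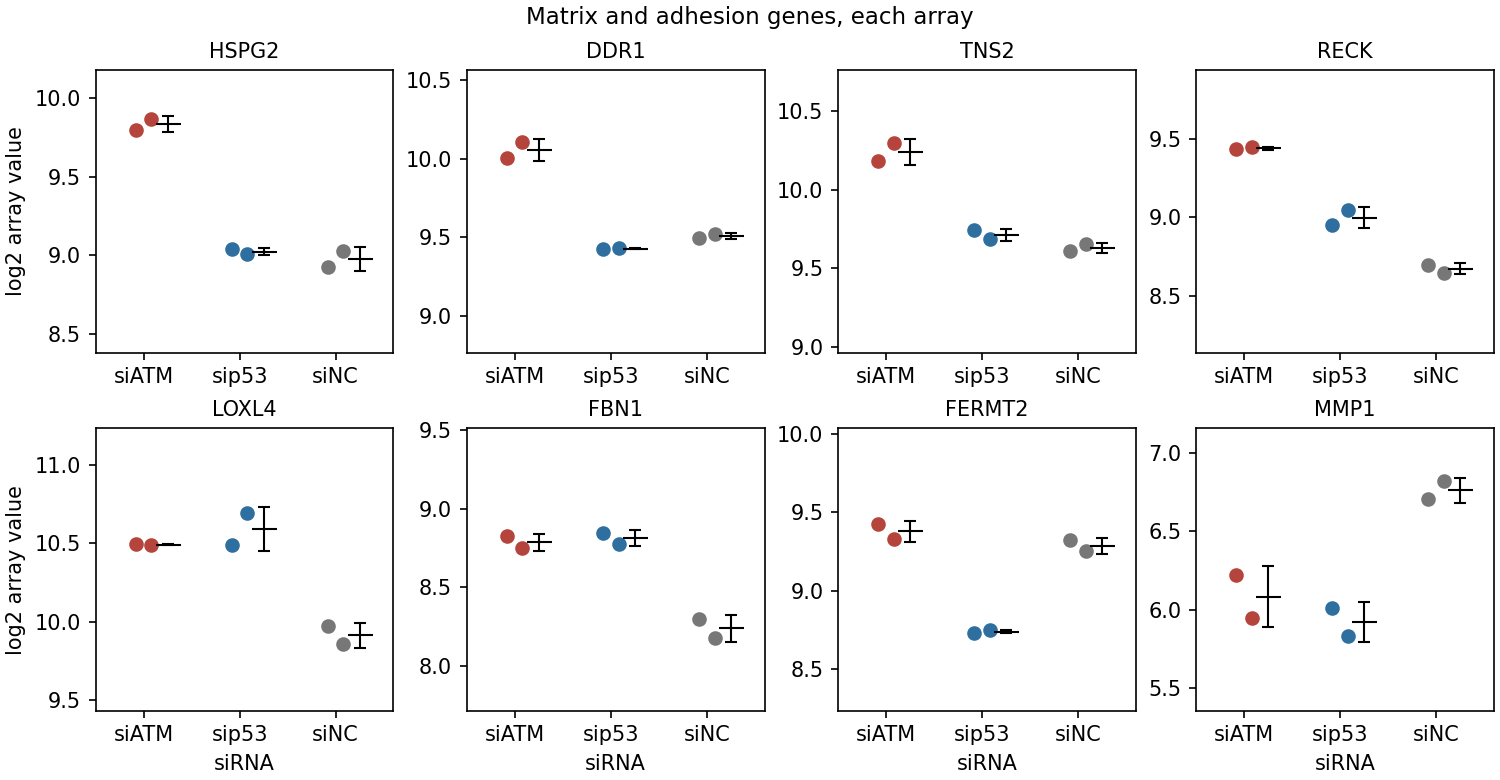
Log2 array value of 8 matrix and adhesion genes on each array (points), with the mean and SD of each siRNA beside them (black, n = 2 each); each panel spans the same height and does not start at 0. HSPG2, DDR1 and TNS2 stand apart with siATM, FERMT2 with sip53, and LOXL4, FBN1 and MMP1 with both.

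Markers were checked as far as they were named on the array. Of 10 genes typical of basal and mesenchymal breast cancer lines, 7 were named and all 7 tested, with VIM at 11.62 ± 0.05 with siATM, 11.63 ± 0.04 with sip53 and 11.62 ± 0.03 with siNC. Among these 7, 2 were higher and 0 lower after siATM, and 0 were called after sip53. The 2 were S100A4 (log2 fold change 0.39) and ANXA1 (0.20, limma adjusted p = 0.0345). ESR1, the estrogen receptor that this line lacks, averaged 5.64 with siATM, 5.78 with sip53 and 5.77 with siNC, below the limit for testing. Of 10 fibroblast markers, 3 were named, and their mean log2 value was 5.65 and 5.90 with siATM and 5.74 and 5.78 with sip53, against 5.62 and 5.60 with siNC. Among them DCN was not tested, THY1 was not called and LUM rose (0.68 after siATM and 0.49 after sip53, limma adjusted p = 0.00164 and 0.0120). The 6 named of 8 endothelial markers averaged 5.74 and 5.80 with siATM and 6.01 and 6.07 with sip53, against 5.96 and 6.02 with siNC, and of 3 tested 1 was lower after siATM and 0 changed after sip53. The 3 named of 9 haematopoietic markers averaged 9.66 and 9.65 with siATM and 8.78 and 8.67 with sip53, against 9.06 and 9.11 with siNC, and of 3 tested 2 were higher after siATM and 1 lower after sip53. Most of this shift was CD14 (log2 fold change 1.19 after siATM and −0.78 after sip53). The median of the 3 was 0.38 and −0.16, and CD68 was not called (0.16 and −0.14). Of 9 luminal epithelial markers, 8 were named and 7 tested, of which 4 were higher after siATM and 3 after sip53, and 0 lower after either. The largest rise after siATM was that of AGR2 (1.14), against a list median of 0.21. Over all genes tested, 25.5% were called after siATM and 10.6% after sip53. The part of these marker shifts in the matrix gene results was not tested.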

How the data were processed

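The deposited table holds 1 log2 value per probe set and array. The authors' background correction, summarisation and annotation build are not given in the sources used here. This log2 scale was read from the values, which run from 1.33 to 14.2, with array medians of 5.95 to 5.98. No scanner files were used, so detection calls and batches were not tested, and precision is limited by the number of arrays. Of 53617 probe sets, 16098 carried 1 gene symbol. Those with no symbol or with several were left out. Each gene was represented by its probe set with the highest mean over the 6 arrays. COL26A1 had 1 probe set.

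Genes whose mean reached 5.96, the median over all probe sets, were tested, 10640 of 14884. Group means over all 6 arrays were fitted with limma 3.58.1 (R 4.3.3), with 3 residual and, after eBayes moderation, 7.29 degrees of freedom. P-values are two-sided and were adjusted by Benjamini-Hochberg within each comparison, and intervals cover 95%. The fit was also run on simulated arrays with 200 changed genes. The outcome is not given here and is not used as support. The selected genes, the lists and the naming rule were chosen with earlier results of these data known. COL26A1 was always named, and of each list up to 3 called genes with the largest change against siNC per comparison. LUM, VIM, S100A4, ANXA1, ESR1, DCN, THY1, CD14, CD68 and AGR2 were named after their values were seen. So were the antisense RNAs, the sip53 value of RECK and the siATM values of CCN2, FERMT1, TNS4 and SDC2. Near-identical genes share probe sequence. Alternatives covered filter, scaling, moderation, probe sets, groups, replicate block and single arrays. Their effect on the matrix lists was added after seeing the data.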

Additional observations from a re-analysis of the deposited data

How the results depend on the processing

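COL26A1 was called in none of the 3 comparisons under any of the 13 alternatives that tested it. A filter at the 70th percentile left it out. Its log2 fold change ranged from −0.15 to 0.0010 after siATM with 1 array left out (adjusted p 0.254 to 0.995 over the alternatives), from −0.0546 to 0.10 after sip53 (adjusted p 0.553 to 0.942), and from −0.14 to −0.06 between siATM and sip53 (adjusted p 0.313 to 0.736). Centring each array on its median gave −0.0110 after sip53. Centring also changed the split of all genes called after sip53 to 410 higher and 668 lower, against 582 and 544. With 1 array left out, the genes called in all were 1437 to 2226 after siATM, 272 to 1242 after sip53 and 1842 to 2852 between the siRNAs. Those of the 5 lists were 16 to 27, 5 to 16 and 18 to 25. Without a filter on dim genes, 481 genes were called after sip53, and 19 and 8 of the lists after siATM and sip53. With trend and robust moderation, 1742 were called after sip53. Of 27 gene calls against siNC named by the rule, 15 held in every alternative that tested them and 12 were lost in at least 1.

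Same-numbered arrays deviated together only weakly (correlations 0.12 for siATM with sip53, 0.04 for siATM with siNC and 0.03 for sip53 with siNC), so the numbers were not taken as pairs. With a replicate block 2696, 1001 and 3218 genes were called after siATM, after sip53 and between them, and COL26A1 was at −0.08, 0.02 and −0.10 (adjusted p = 0.457, 0.872 and 0.324).

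Of 25 differences of the named matrix genes that were not called, 12 changed sign with 1 array left out and 0 under the other alternatives, and 4 were called under at least 1 alternative. The cause was not tested.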

Other observations

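Antisense RNA genes whose symbols carry a collagen or integrin gene's name fall outside the symbol rule, and 4 were among the genes named on the array. Of these, ITGB2-AS1 and COL18A1-AS1 were bright enough to be tested. ITGB2-AS1 had log2 values of 6.08 and 6.15 with siATM and 6.24 and 6.09 with sip53, against 6.26 and 6.29 with siNC. Its log2 fold change was −0.16 after siATM (limma adjusted p = 0.136) and −0.10 after sip53 (adjusted p = 0.389), and neither was called. COL18A1-AS1 had 6.68 and 7.03 with siATM and 6.56 and 6.49 with sip53, against 6.71 and 6.73 with siNC. Its siATM arrays differed from each other by 0.35, and its difference between siATM and sip53 was 0.33 (limma adjusted p = 0.0557). COL18A1-AS2 and COL4A2-AS1 averaged 5.02 and 4.93 with siATM, 4.87 and 5.19 with sip53, and 4.69 and 5.05 with siNC, below the limit for testing.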
